A study of Mus musculus with 15 samples.

Results

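The 78 genes described here encode the proteins of the cytosolic ribosome, the particle that translates messenger RNA outside the mitochondria. They were taken from 38087 gene rows as those whose symbol is Rpl or Rps with a number and at most one of the letters a, x, y or l, or is Rpsa, Rplp0, Rplp1 or Rplp2, and whose mean level over the libraries was at least 1 CPM (the usual unit of counts scaled to a common library total). Of 81 rows with such a symbol, 46 large-subunit and 32 small-subunit genes passed. The 3 rows left out were the tissue-restricted paralogs Rpl3l (mean 0.0417 CPM), Rpl39l (0.00217 CPM) and Rpl10l. The latter had no count in 13 libraries, which allows a level of up to 0.0057 CPM (3 counts over all libraries, counting error only). The lowest member, Rpl29, had a mean of 30.0 CPM and the highest, Rpl4, one of 1618 CPM, so no gene lay near the limit.

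Hepatocytes of CD-1 donor mice, thawed from frozen stocks, were cultured on collagen I under a Geltrex overlay at 200000 cells per well. After 6 h of attachment and a change to defined medium, the cells received medium with 25% mouse serum on the next day. After 24 h in serum, mouse growth hormone at 8 ng/ml or its vehicle, phosphate-buffered saline, was given for 2 h before RNA was taken. The 5 groups were male cells in serum of conventionally raised male mice (m_pHep_m_ConvR, n = 3 libraries), female cells in that male serum (f_pHep_m_ConvR, n = 3), female cells in serum of conventionally raised females (f_pHep_f_ConvR, n = 2), female cells in serum of germ-free females (f_pHep_f_GF_serum, n = 2), and female cells in germ-free serum with growth hormone (f_pHep_f_GF_serum_GH, n = 3). The first 4 groups received no hormone. All groups share the plating medium, dexamethasone, insulin and the 2 h final step. Donor sex and donor stock cannot be told apart, because male and female cells come from different stocks. No label ties a replicate to its own culture, animal or serum pool, so the p-values measure only the spread between these libraries, which may be technical.

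Each ribosome holds 1 copy of most of these proteins, the stalk proteins Rplp1 and Rplp2 being present in more, and cells make them in matched amounts although the genes lie scattered over the genome. Their messenger RNAs are abundant and long-lived, and they are known to carry a 5′ terminal oligopyrimidine tract (a C followed by C and T letters at the very start), through which the mTOR pathway and the RNA-binding protein Larp1 set how much of the message is translated. Hepatocytes, which secrete most plasma proteins, translate heavily. Counts of RNA, as used here, measure the amount of message and not its translation.

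The start sites were read for the tract described above. RefSeq starts were found for 57 of the 78 genes (68 starts, build GRCm38.p6). The windows below run from 10 bases before to 20 bases from the listed start, 5′ to 3′ on the gene's strand, and the longest run of C and T that opens with C is in capitals. They are all listed starts of the genes called between the hepatocyte stocks, except Rplp1 and Rpl30, for which no start was matched, with Rps6 and Rpl38 as references. Rplp2 and Rps16 were also read as references and are not printed. The longest run of Rplp2 has 9 letters and opens 4 bases before the listed start. That of Rps16 has 3 letters and opens at base 9 of the listed transcript. In Rpl38 and Rps15a the run opens exactly at the listed start, and in Rps6, Rps27 and Rpl28 it opens 1 to 2 bases before it. In Rpl22, Rps27l and Rplp0 the longest run lies away from the start or is short.
Rps6, chr4:86857348-86857377, minus strand: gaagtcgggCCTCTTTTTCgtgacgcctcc
Rpl38, chr11:114668570-114668599, plus strand: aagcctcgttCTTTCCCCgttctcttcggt
Rps15a, chr7:118116128-118116157, minus strand: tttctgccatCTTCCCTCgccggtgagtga
Rps27, chr3:90213629-90213658, minus strand: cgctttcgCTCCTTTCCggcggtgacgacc
Rpl28, chr7:4792955-4792984, plus strand: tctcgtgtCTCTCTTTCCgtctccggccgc
Rpl35a, start 1, chr16:33056443-33056472, plus strand: gcgtgcgtCCCacaaggccgcgcggcgggg
Rpl35a, start 2, chr16:33056472-33056501, plus strand: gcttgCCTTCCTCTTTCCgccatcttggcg
Rpl35a, start 3, chr16:33056504-33056533, plus strand: tgtggaggtgaggggggttCCTgctgctga
Rps12, chr10:23787190-23787219, minus strand: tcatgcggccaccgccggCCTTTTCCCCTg
Rps26, chr10:128626487-128626516, minus strand: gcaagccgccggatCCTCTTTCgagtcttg
Rps2, chr17:24720053-24720082, plus strand: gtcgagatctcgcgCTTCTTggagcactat
Rpl26, chr11:68901556-68901585, plus strand: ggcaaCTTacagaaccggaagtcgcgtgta
Rpl22, start 1, chr4:152325716-152325745, plus strand: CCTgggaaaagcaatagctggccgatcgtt
Rpl22, start 2, chr4:152324426-152324455, plus strand: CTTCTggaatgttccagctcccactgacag
Rps27l, start 1, chr9:66946076-66946105, plus strand: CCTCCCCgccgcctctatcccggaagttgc
Rps27l, start 2, chr9:66946403-66946432, plus strand: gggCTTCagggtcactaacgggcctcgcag
Rplp0, chr5:115559457-115559486, plus strand: cgggtttcgaggaccgcctggttCTCCTat
A C followed by 4 pyrimidines stood exactly at a listed start in 13 of 57 members, against 3.01% of 27025 genes in the same table. Allowing the tract to open anywhere from 4 bases before to 5 bases after the start gave 27 of 57 members and 17.9% of all genes. The motif CCGGAAG, searched on both strands of the 300-base promoter (250 bases before and 50 after the start), occurred in 24 of 57 members and 9.93% of genes. The letters TATAAA on the sense strand occurred in 5 of 57 members and 9.77% of genes. CCGGAAG read on the other strand is CTTCCGG, which holds a C followed by 4 pyrimidines, so both searches can match the same letters near a start. A match is a description of the listed window only. In Rpl26 the window holds CCGGAAG just after the listed start and its longest run has 3 letters. In Rps12 the run opens at base 9 of the listed transcript. A listed start need not be the start in use in these cells.

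Compared per length, members differed widely in level. CPM per kilobase of a representative GENCODE M21 transcript ran from 51.5 for Rpl29 to 2201 for Rplp1, a 42.7-fold range, with the quartiles of the 78 genes at 404 and 864. The highest levels per kilobase were those of the acidic stalk protein Rplp1 (2201 ± 286, SD over 13 libraries), of Rpl41, which encodes the smallest protein of the ribosome (2170 ± 230), and of the small-subunit protein Rps24 (1887 ± 138). The lowest were Rpl29 (51.5 ± 4.84), Rpl24 (82.5 ± 4.04) and Rpl34 (125 ± 8.79). The rank depends on the transcript chosen: over all annotated exons of the gene Rps24 had 141 and Rpl41 812 per kilobase, and Rps24 was then 56th of 78 rather than the third, while Rplp1 stayed highest. The representative transcript of Rpl24 is 4920 bases long in that annotation, which lowers its value. Rpl29 and Rpl34 share sequence with copies that held more counts than the genes themselves, and adding those copies gave 117 and 424 per kilobase.

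Near-identical copies are common for this family and touch every level given here. In total 337 other rows shared at least one 100-base stretch, the length of a read, with a member transcript, 322 of them processed pseudogenes and 13 annotated as protein coding. They belonged to 66 of the 78 members. Across libraries these rows held 20.3 to 22.1 counts per 100 counts on the members. In 6 members, Rpl26, Rpl29, Rpl34, Rps18, Rps2 and Rps7, the copies held more counts than the gene. The pseudogene Gm15772 had 298783 counts against 53230 on Rpl26, and Rps2-ps13 had 362048 against 201306 on Rps2. A median of 58.6% of a member's 100-base stretches were unique to it, and in 6 members all were. How reads that fit both a gene and its copy were assigned is not given in the sources used here, so the level of a member with such copies is uncertain. Exons of 37 members also overlap those of another gene, often a small nucleolar RNA.

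**Figure D1:**
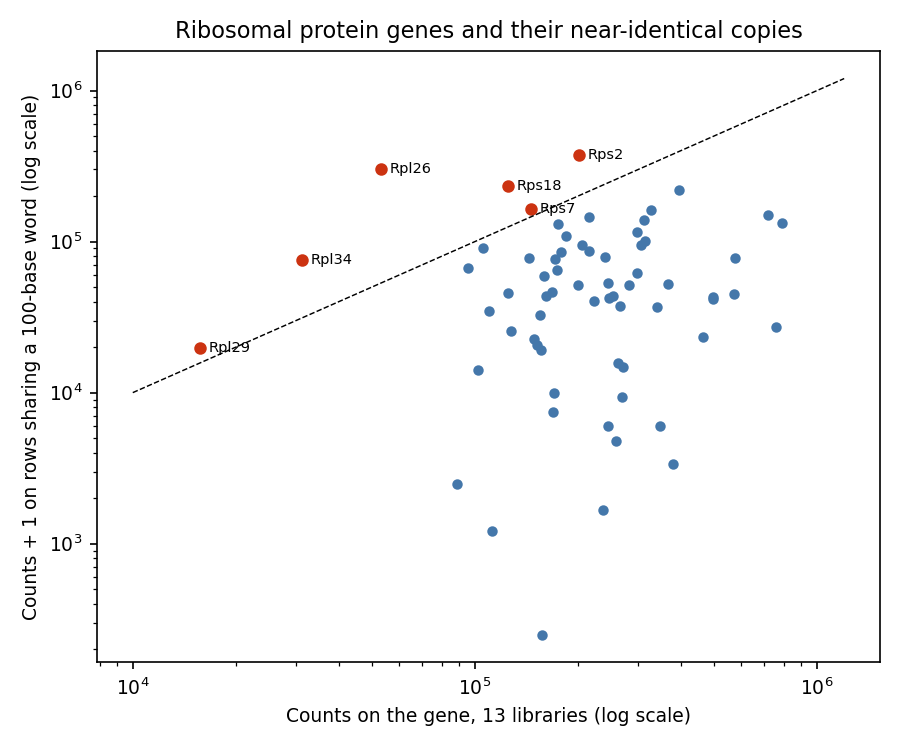
Counts summed over 13 libraries on each of the 66 members with a copy (x axis, log scale) against counts plus 1 on the rows sharing a 100-base stretch with it (y axis, log scale); the dashed line marks equal counts. The 6 members in red lie above the line, with Rpl26 farthest from it.

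Over the 13 libraries, of 34097400 to 48742274 counts each, the 78 genes took 3.67% to 4.58% of all counts. In male cells the share was 3.92%, 3.74% and 4.01% in the 3 libraries (mean 3.89% ± 0.136, SD, n = 3). In female cells with the same male serum it was 4.24%, 4.28% and 4.13% (4.21% ± 0.0761, n = 3). In female cells with conventional female serum the libraries, replicates 2 and 3, gave 3.76% and 4.37% (4.06% ± 0.434, n = 2). The 3 male-cell values lay below the 3 of female cells in the same serum, while all of these but the lowest male-cell value lay inside the range of the pair in female serum. With germ-free serum the share was 4.22% and 4.58% in replicates 2 and 3 (4.40% ± 0.257, n = 2). With germ-free serum and growth hormone it was 3.67%, 4.20% and 4.11% (3.99% ± 0.285, n = 3). All 3 hormone libraries lay below both libraries with germ-free serum alone, the nearest values being 4.20% and 4.22%. Exact 95% binomial intervals of single libraries were narrow, for example 3.66% to 3.67% for the lowest, so counting error was small beside the spread of replicates. Large-subunit genes held 1.41 to 1.47 counts per count on small-subunit genes in every library.

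**Figure D2:**
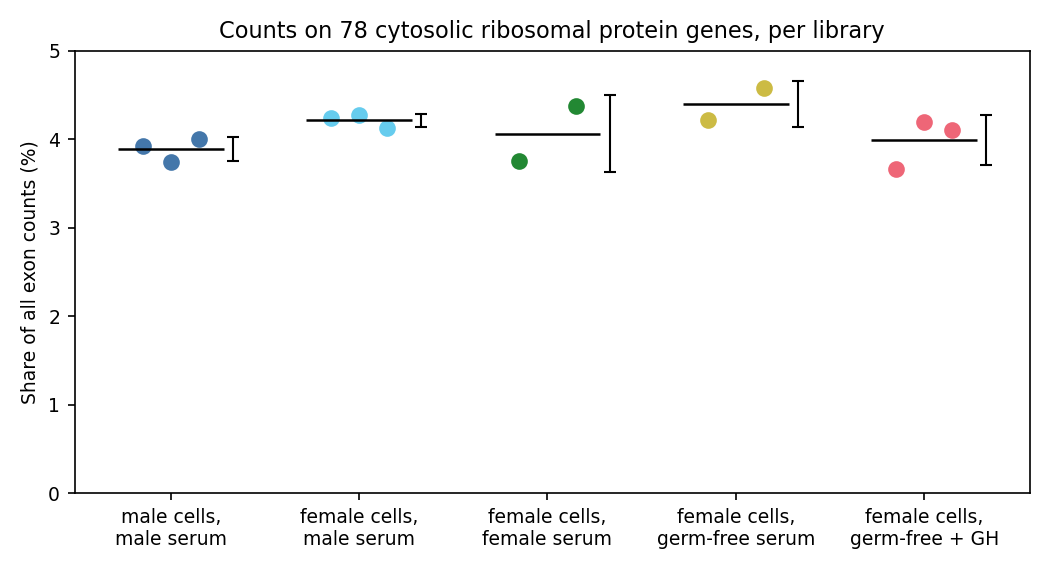
Share of all exon counts on the 78 genes (y axis, percent, from 0) for each library (points) in the 5 groups (x axis), with the group mean (line) and SD (bar beside it). The pair in conventional female serum spans 3.76% to 4.37%, more than the largest distance between group means.

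The difference in share between the hepatocyte stocks depended on the genes counted and on the scaling. The 100 genes of highest count include 12 of the members. After leaving these 100 genes out of the table, the other members held 3.35% to 3.61% in male-cell libraries. In female-cell libraries in the same serum they held 3.52% to 3.67%, and the ranges overlap. On library sizes scaled by the trimmed mean of M values (TMM), the members summed to 38946 to 42503 CPM in male cells and 41119 to 42375 CPM in female cells in male serum, which also overlap. The TMM factors of the male-cell libraries were 0.943 to 0.960, against 0.991 to 1.04 in the other groups. The summed level of 8 hepatocyte markers, among them Alb, Apoa1 and Ttr, was 21466 to 22662 CPM in male cells and 8353 to 8712 CPM in female cells in the same serum. Of these 8 markers 7 passed as higher and 1 as lower in male cells, against 17.6% and 19% of all genes tested. The part of the marker level in the smaller share was not tested.

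In all groups but female cells with male serum, most members moved together between replicates. In conventional female serum 77 of 78 genes were lower in replicate 2 than in replicate 3, with a median difference of -0.17 on the log2 scale of TMM-scaled CPM. In germ-free serum all 78 were lower in replicate 2 than in 3 (median -0.13). With growth hormone all 78 were lower in replicate 1 than in 2 (median -0.16) and 77 were lower than in 3 (median -0.13). In male cells 77 were lower in replicate 2 than in 3 (median -0.13). In female cells with male serum the 3 libraries lay closer, with medians of 0.02 to 0.03 between them. There the members went both ways. Of the 78, 28 were lower in replicate 1 than in 2, 24 lower in 1 than in 3, and 33 lower in 2 than in 3. Over all genes tested the median difference lay between -0.01 and 0.01 in every such pair of replicates. The within-group SD of the members' mean log2 level was 0.077. Across the 13 libraries a member's log2 level had a median SD of 0.097 (0.061 for Rpl4 to 0.473 for Rpl26). The median SD was 0.130 for 5946 other genes in the same range of CPM. These were not matched to the members in level within that range.

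**Figure D3:**
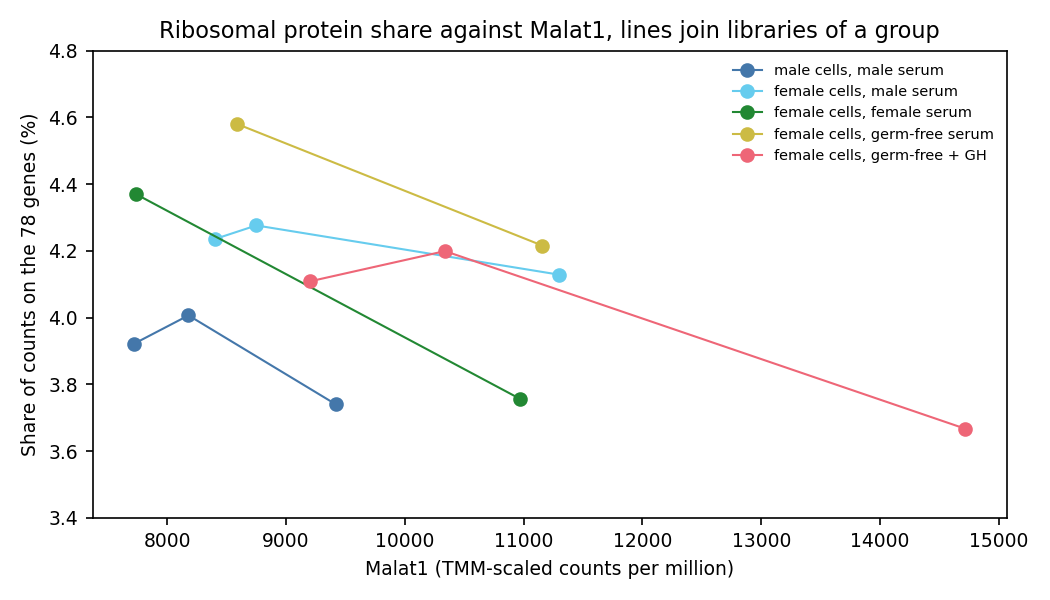
Share of counts on the 78 genes (y axis, percent, axis not from 0) against the TMM-scaled level of Malat1 (x axis, CPM) in 13 libraries, with lines joining libraries of 1 group. In each of the 5 groups the library with most Malat1 has the smallest share.

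Within each group, the library with the smallest ribosomal protein share was richest in 2 RNAs that are kept in the nucleus. Between groups this did not hold. Male-cell libraries had shares of 3.74% to 4.01% with Neat1 at only 459 to 688 CPM. In germ-free replicate 2 the share was 4.22% with Neat1 at 2464 CPM. In 5 of 5 groups the library with the smallest share on the members had the highest level of Malat1 and also of Neat1, both long noncoding RNAs of nuclear bodies, a pattern picked out after the values were seen. Malat1 was 14717 CPM in growth hormone replicate 1 against 10339 and 9205 CPM in the other libraries of that group. It was 10969 CPM in replicate 2 and 7735 CPM in replicate 3 of conventional female serum. Neat1 was 6966 CPM in growth hormone replicate 1, against a lowest value of 983 CPM in its group, and 2979 against 900 CPM in the pair with conventional female serum. These values sit beside each result below that uses female or germ-free serum, and their part in those results was not tested. In such bulk RNA fewer cells of a type and less RNA per cell cannot be told apart.

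The male and female hepatocyte stocks were compared in the same male serum. Of the 78 genes, 7 were higher and 6 lower in male cells by the quasi-likelihood F test of edgeR with Benjamini-Hochberg adjustment over 17405 genes (adjusted p below 0.05), and 65 did not pass. Of all genes tested 36.7% passed, 17.6% higher and 19% lower, and 16.7% of the members did. Their median change was -0.00 on the log2 scale (quartiles -0.09 and 0.05), against -0.02 over all genes, and 66 of 78 lay within 0.2 of 0. By DESeq2's Wald test 12 were called. Scaling by library size alone, which moved the median of all genes to -0.11, gave 3 higher and 17 lower members. Libraries did not overlap for 13 members on the higher side (23.2% of all genes) and 13 on the lower side (24.3%).

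**Figure D4:**
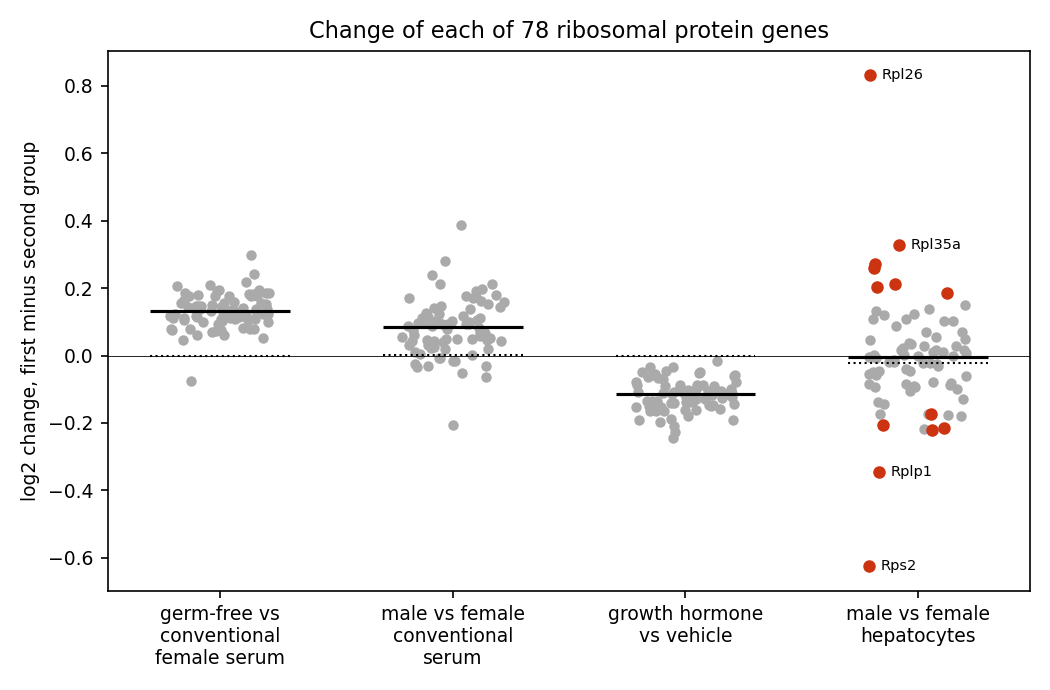
Change of each of the 78 genes (points, log2, y axis) in the 4 comparisons (x axis), with the median of the members (solid line) and of all genes tested (dotted line); red points passed the adjusted threshold. Members form a narrow band in each of the serum and hormone comparisons, and the 13 called genes appear in the comparison of stocks.

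Among large-subunit genes, Rpl26 (ENSMUSG00000060938, chr11:68901583-68906989), a protein near the exit of the peptide tunnel that is also known to bind p53 messenger RNA, had the largest fitted increase. It stood at 176, 164 and 169 CPM in male cells and at 99.0, 111 and 76.3 CPM in female cells in the same serum, and at 69.9 to 93.3 CPM in the other 3 groups. No female-cell library reached the male-cell values. The log2 change was 0.83 ± 0.10 (SE), with edgeR's adjusted p = 8.91e-06. Its pseudogene copy Gm15772 was 512 ± 49.4 CPM in male cells and 581 ± 21.6 CPM in female cells (log2 change -0.18 ± 0.08, edgeR adjusted p = 0.10). When Rpl26 and its copies were summed, an alternative chosen after seeing the data, the change was 0.01 ± 0.08 (edgeR adjusted p = 0.93). The call for Rpl26 therefore holds for the row as counted and not for the sum of gene and copies.

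Rpl35a, a large-subunit protein mutated in some patients with Diamond-Blackfan anaemia, was 194, 188 and 212 CPM in male cells and 157, 149.98 and 166 CPM in female cells in male serum. The 3 male-cell libraries were the highest of all 13, the next being 179.8 CPM in germ-free serum. Its log2 change was 0.33 ± 0.07 (edgeR adjusted p = 0.0023), and 0.32 ± 0.07 with its copies summed. Rpl30, which can bind its own transcript in yeast, was 336, 324 and 352 CPM against 281, 276 and 281 CPM, a log2 change of 0.27 ± 0.06 (edgeR adjusted p = 0.0035). Its exons overlap 616 bases of D730044K07Rik on the opposite strand, and they also overlap a small nucleolar RNA. Rpl22, an RNA-binding protein that is dispensable for most translation and needed for T-cell development, was 359, 354 and 379 CPM against 319.9, 309.7 and 319 CPM (0.20 ± 0.06, edgeR adjusted p = 0.018). All 100-base stretches of Rpl22 were unique to it.

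Small-subunit genes that were higher in male cells were Rps27, its paralog Rps27l and Rps15a. Rps27 was 323, 319.5 and 335 CPM in male cells and 288, 265 and 263 CPM in female cells in male serum (log2 change 0.26 ± 0.07, edgeR adjusted p = 0.011). Rps27l, a p53-induced gene with no copy in the table, was 304, 294 and 316 CPM against 255, 256 and 277 CPM (0.21 ± 0.07, edgeR adjusted p = 0.022). For both genes the groups did not overlap in this serum. For Rps27l the highest value of all was 329 CPM in a female-serum library. Rps15a was 441, 444 and 486 CPM against 396, 400.1 and 412 CPM (0.18 ± 0.07, edgeR adjusted p = 0.043).

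Of the lower genes, Rps2 (ENSMUSG00000044533, chr17:24718116-24721929), a small-subunit protein at the messenger RNA entry channel, differed most. It was 271, 268 and 271 CPM in male cells and 421, 413 and 414 CPM in female cells in the same serum. Its lowest value in the other female-cell groups was 370.0 CPM, so the 3 male-cell libraries stood apart from all 10 others. The log2 change was -0.62 ± 0.06 (edgeR adjusted p = 1.12e-06). Copies of Rps2 differed in both directions: Rps2-ps13 was 601 ± 47.1 CPM in male and 711 ± 48.9 CPM in female cells (log2 change -0.24 ± 0.08), whereas Gm8841 was 42.9 ± 3.60 against 7.42 ± 0.672 CPM (2.53 ± 0.14). With all copies summed the change was -0.32 ± 0.07 (edgeR adjusted p = 0.0020), so it was smaller and still passed. Exons of Rps2 overlap 134 bases of Snora64, and they also overlap Snhg9.

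The stalk of the large subunit, which recruits elongation factors, is formed by Rplp0, Rplp1 and Rplp2. Rplp1 was 996, 896 and 1008 CPM in male cells against 1259, 1287 and 1138 CPM (log2 change -0.35 ± 0.08, edgeR adjusted p = 0.0030). Rplp0 was 1444, 1373 and 1475 CPM against 1627, 1649 and 1559 CPM (-0.17 ± 0.06, edgeR adjusted p = 0.048). Rplp2 was 366, 358 and 375 CPM against 396, 422 and 389.9 CPM, which do not overlap, and did not pass (-0.14 ± 0.06, edgeR adjusted p = 0.10). Male-cell libraries were thus below female-cell libraries of the same serum for all 3 stalk genes. In the other female-cell groups, however, Rplp1 was 987 CPM in 1 hormone library, below 2 of the male-cell values.

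Rps12, Rps26 and Rpl28 were the other lower genes. Rps12 was 581, 583 and 602 CPM in male cells and 675, 703 and 682 CPM in female cells (log2 change -0.22 ± 0.06, edgeR adjusted p = 0.012), and no female-cell library of any group was below 613 CPM. Rps26, which contacts the message upstream of the start codon, was 484, 427 and 477 CPM against 593, 516 and 501 CPM (-0.21 ± 0.08, edgeR adjusted p = 0.036), and its call was lost with copies summed (adjusted p = 0.070). Rpl28 was 302, 274 and 291 CPM against 372, 328 and 301 CPM, groups that overlap slightly (-0.21 ± 0.07, edgeR adjusted p = 0.036), and its exons overlap 183 bases of Ube2s.

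**Figure D5:**
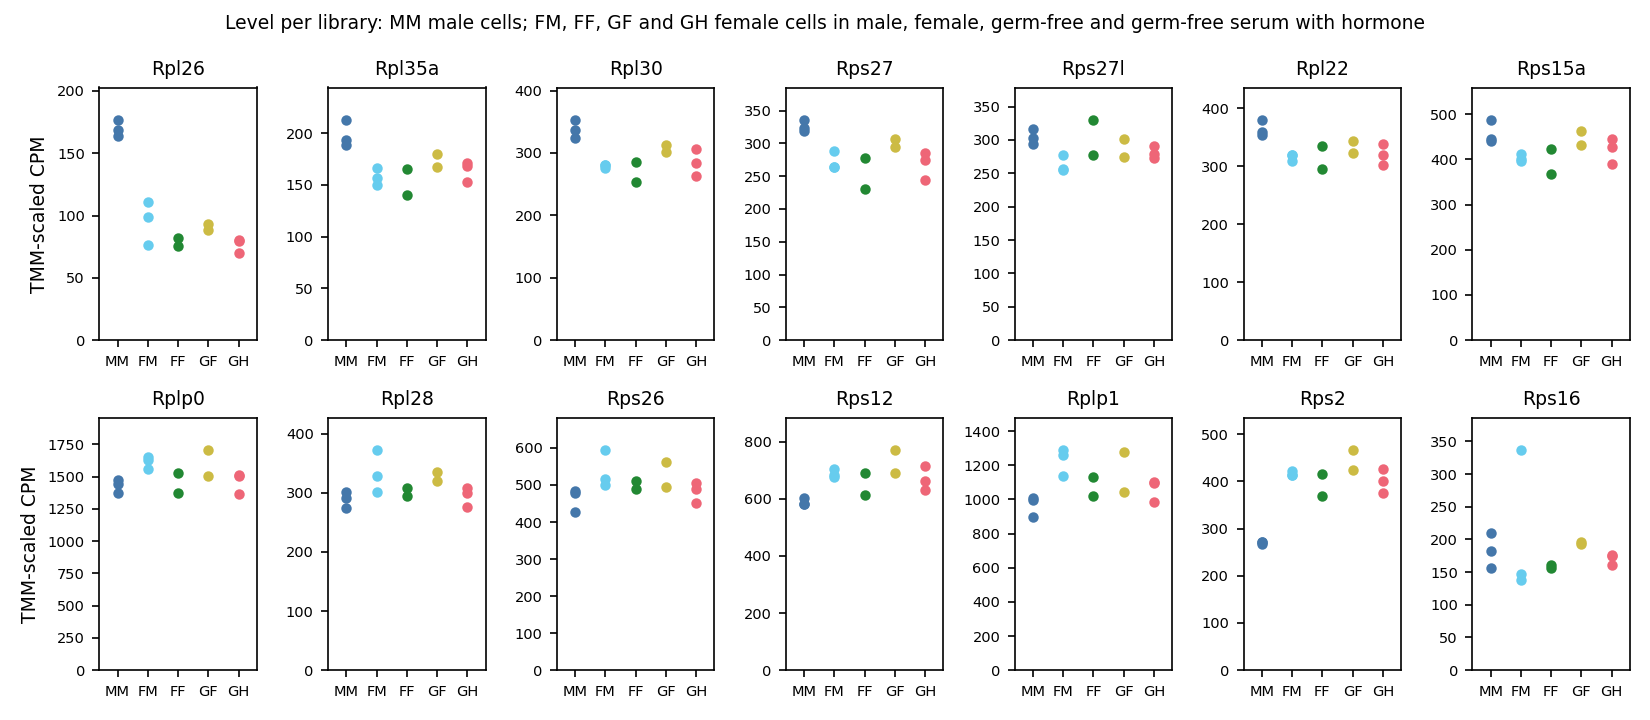
TMM-scaled CPM (y axis, from 0) in each of 13 libraries (points) for the 13 genes called between stocks, ordered by log2 change, and for Rps16; MM is male cells in male serum, FM, FF, GF and GH are female cells in male, female, germ-free and germ-free serum with hormone. In Rps2 and Rpl26, and by smaller margins in Rpl35a, Rpl30, Rps27, Rpl22 and Rps12, MM lies apart from all others, and 1 FM library of Rps16 stands apart at 336 CPM.

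The number of calls between stocks depended on single libraries. Leaving out male-cell replicate 1 or 2 left 7 higher and 2 lower genes, and leaving out replicate 3 left 4 and 3. Leaving out female-cell replicate 1, 2 or 3 gave 6 and 3, 5 and 4, or 6 and 9. Rps2, Rplp1, Rpl30 and Rpl35a were called in all 16 alternatives. The calls for Rplp0, Rpl28 and Rps26 were lost without male-cell replicate 1, 2 or 3, and with upper-quartile scaling. That for Rplp0 was also lost with DESeq2's test. Of the higher genes, Rpl22, Rps15a and Rps27l were lost without male-cell replicate 3.

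Several members with well-known roles did not pass between stocks. Rps6, the ribosomal substrate of S6 kinase, was 408, 369.6 and 416 CPM in male cells and 425, 428 and 417 CPM in female cells in male serum (log2 change -0.09 ± 0.07, edgeR adjusted p = 0.32). Rps19, the gene most often mutated in Diamond-Blackfan anaemia, had -0.14 ± 0.07 (edgeR adjusted p = 0.12). Rpl3, near the peptidyl transferase centre, had -0.00 ± 0.06, Rpl13a -0.05 ± 0.07, Rpsa, also known as the laminin receptor, 0.03 ± 0.07 and Rps14 0.05 ± 0.08. The 95% intervals of these genes reached no lower than -0.28 and no higher than 0.20. Of 4 members on the X chromosome, Rpl10 had a log2 change of 0.15 ± 0.07 (edgeR adjusted p = 0.13), Rpl39 0.10 ± 0.07, Rps4x 0.07 ± 0.07 and Rpl36a -0.08 ± 0.07, and none passed.

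Germ-free female serum was compared with conventional female serum on female cells, 2 libraries each. None of the 78 genes passed by edgeR or by DESeq2, against 6.41% of all genes (2.86% higher, 3.54% lower), while 12 had an unadjusted p below 0.05 by edgeR and 13 by DESeq2. The members nevertheless shared a direction: 77 of 78 had a fitted change above 0, with a median of 0.13 on the log2 scale (1.09-fold), against -0.00 over all genes. Libraries did not overlap for 29 members on the higher side, against 23.7% of all genes, and for none on the lower side (26.2%). The median is no larger than the distance between replicates of either group, which was 0.17 in conventional and 0.13 in germ-free serum. It was 0.05 without conventional serum replicate 2, 0.22 without replicate 3, 0.20 without germ-free replicate 2 and 0.06 without replicate 3. A fitted change of single members carried a median SE of 0.08.

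Rps16 and Rps27 were among the members with the largest fitted changes above 0 with germ-free serum. Rps27 was 295 and 306 CPM in germ-free serum against 231 and 277 CPM (log2 change 0.24 ± 0.09, edgeR adjusted p = 0.13, the smallest among the members), and passed when conventional serum replicate 3 was left out (0.38, adjusted p = 0.028). Rps16 was 193 and 197 CPM against 161 and 157 CPM (0.30 ± 0.28, edgeR adjusted p = 0.60), and passed without a filter on low counts (adjusted p = 0.026). The single member with a value below 0 was Rps27l, at 274 and 302 CPM against 278 and 329 CPM (-0.08 ± 0.08, edgeR adjusted p = 0.66), where the libraries overlap.

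Male and female conventional serum were compared on female cells, using the same 2 female-serum libraries. None of the 78 genes passed by edgeR or DESeq2, against 8.8% of all genes (3.95% higher, 4.85% lower), and 9 and 11 had an unadjusted p below 0.05. The median change was 0.09, with 67 genes above 0 and 11 below. It became -0.01 without female-serum replicate 2 and 0.17 without replicate 3, so its sign rests on 1 library. Libraries did not overlap for 12 members on the higher side (16.4% of all genes) and 1 on the lower (18.6%).

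That 1 gene was Rps27l. It was 255, 256 and 277 CPM in male serum and 278 and 329 CPM in female serum, a log2 change of -0.21 ± 0.08 (edgeR adjusted p = 0.10). It passed relative to the summed counts of the family (-0.28, adjusted p = 0.032), without female-serum replicate 2 (-0.33, adjusted p = 0.036) and without the 2 libraries richest in Xist (-0.33, adjusted p = 0.027). The next lowest, Rpl10 (-0.06 ± 0.08) and Rpl9 (-0.05 ± 0.08), lay within their errors of 0. On the higher side Rpl26 had 0.28 ± 0.11 (edgeR adjusted p = 0.15) and Rps29 0.24 ± 0.09 (adjusted p = 0.13). Without male-serum replicate 3 both passed, at adjusted p = 0.0085 and 0.026, and Rpl26 also passed without a filter on low counts (adjusted p = 0.031). With copies summed and all libraries kept, Rpl26 had 0.04 ± 0.09 (edgeR adjusted p = 0.84) and Rps29 0.18 ± 0.09 (edgeR adjusted p = 0.22).

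Rps16, a small-subunit protein, stood apart in 1 library. In male serum it was 336 CPM in replicate 1 and 148 and 139 CPM in replicates 2 and 3, against 161 and 157 CPM in female serum. The 12 other libraries of the study lay between 139 and 210.4 CPM. Its fitted log2 change of 0.39 ± 0.26 (edgeR adjusted p = 0.38) was the largest of the family in this comparison, and it passed without a filter on low counts (adjusted p = 0.00017), with the same library included.

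Growth hormone for 2 h was compared with vehicle in germ-free serum. None of the 78 genes passed by edgeR or DESeq2, against 0.586% of all genes (0.511% higher, 0.0747% lower), and 8 and 9 had an unadjusted p below 0.05. All 78 fitted changes were below 0, with a median of -0.11 (0.925-fold) against -0.00 over all genes. Libraries did not overlap for 22 members on the lower side (15.3% of all genes) and for none on the higher side (16.6%). The median was -0.18 without germ-free replicate 2 and -0.04 without replicate 3, and the distance between replicates was 0.13 in the germ-free pair and up to 0.16 among the hormone libraries. Among the lowest fitted values were those of Rpl26 (-0.24 ± 0.11, edgeR adjusted p = 0.39) and Rpl10a (-0.21 ± 0.09, adjusted p = 0.35). Rps6 was 367, 407 and 406 CPM with hormone and 412 and 452 CPM with vehicle (-0.14 ± 0.08, edgeR adjusted p = 0.47). The comparisons with germ-free serum share its 2 libraries, and those with conventional female serum share theirs, so the opposite medians of germ-free serum and of hormone are not separate observations.

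Across all 5 groups at once, 8 of the 78 genes passed edgeR's F test of any difference, against 40.3% of all genes. These were Rpl26, Rps2, Rpl35a, Rpl30, Rps27, Rps12, Rplp1 and Rpl38. Rpl38, a large-subunit protein known for its role in translating Hox messages in the mouse embryo, was called in none of the 4 comparisons and had a fitted spread between groups of 0.22 on the log2 scale (edgeR adjusted p = 0.038). It was 226, 212 and 217 CPM in male cells, 223, 214 and 197 CPM in female cells in male serum and 179 to 203 CPM in the other 3 groups.

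A list of 7 related genes in the table held ribosomal proteins with other names, paralogs and associated proteins. Of these, Fau and Gnb2l1 (the scaffold protein Rack1) passed in no comparison, with changes between stocks of 0.03 ± 0.08 and -0.10 ± 0.06. Rpl22l1, the paralog of Rpl22, was 67.4 ± 6.25 CPM in germ-free serum (n = 2) and 51.9 ± 4.95 CPM in conventional female serum (n = 2; log2 change 0.38 ± 0.11, edgeR adjusted p = 0.049). It was also higher in male cells (76.7 ± 10.1 against 63.1 ± 4.23 CPM, 0.28 ± 0.09, edgeR adjusted p = 0.020), as was Rpl36al (0.25 ± 0.07, edgeR adjusted p = 0.0091).

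Among genes that build ribosomes, most calls between stocks were on the lower side. Of 51 ribosome biogenesis genes, 2 were higher and 26 lower in male cells (median -0.21 against -0.02 over all genes), where 17.6% of all genes tested were higher and 19% lower. Bop1, a factor of large-subunit maturation, was 76.8 ± 0.643 CPM in male and 108 ± 5.09 CPM in female cells (log2 change -0.49 ± 0.06). Bysl, of small-subunit maturation, was 40.4 ± 1.53 against 58.6 ± 2.52 CPM (-0.54 ± 0.06). Rrp12 and Rrp1b had -0.47 ± 0.06 and -0.67 ± 0.08. Of 19 genes of RNA polymerase I and its factors, which transcribe ribosomal RNA, 1 was higher (Polr2k, a subunit shared by the 3 polymerases) and 7 lower, with Polr1a at -0.42 ± 0.07 and Polr1b at -0.58 ± 0.07.

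Translation factors and regulators had calls in both directions in male cells. The same background, 36.7% of all genes called, holds for the lists that follow. Of 41 initiation genes, 7 were higher and 15 lower (median -0.12): Eif5a had -0.45 ± 0.05, Denr -0.67 ± 0.10, Eif4g1 -0.28 ± 0.05 and the X-linked Eif2s3x -0.75 ± 0.06. Of 38 genes of the mTOR pathway and regulators of terminal oligopyrimidine messages, 3 were higher and 14 lower. Larp1, which binds the tract shown above, was 139 ± 4.79 CPM in male and 208 ± 22.7 CPM in female cells (-0.58 ± 0.07), and Rptor, the scaffold of mTOR complex 1, had -0.56 ± 0.07. Sesn2, an mTOR inhibitor, had -0.79 ± 0.08, while Rragd, a GTPase that activates the complex at the lysosome, had 1.68 ± 0.16. Of 17 elongation and termination genes 2 were higher and 4 lower, and of 80 mitochondrial ribosomal protein genes 14 were higher and 14 lower, shares close to that background.

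In the serum comparisons fewer of these genes passed than between stocks. Of all genes tested, 6.41% passed with germ-free serum and 8.8% with male serum. With germ-free serum the elongation factor Eef2, whose message also carries an oligopyrimidine tract, was 3611 ± 94.0 CPM against 3053 ± 38.1 CPM (log2 change 0.24 ± 0.06, edgeR adjusted p = 0.037). Maf1, a repressor of RNA polymerase III, was 43.3 ± 1.29 against 31.7 ± 2.96 CPM (0.45 ± 0.10, adjusted p = 0.010). Of the 38 genes of the mTOR list, 4 were higher and 1 lower with germ-free serum, and 5 higher and 2 lower with male serum. Maf1 was among the latter, with 0.43 ± 0.09 against the same female-serum libraries. Both shares of the mTOR list exceed those over all genes tested, and the list was not tested as a set. Of 17 elongation and termination genes 2 were higher with germ-free serum, and none passed with male serum. None of 51 biogenesis genes passed with germ-free serum and 1 was lower with male serum. Growth hormone gave no call in any of the 8 lists, against 0.586% of all genes tested. That share is too small for the absence of calls to be read as a result about these lists.

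Cells other than hepatocytes were few by their markers and differed between stocks. The summed level of 6 Kupffer cell and macrophage markers in the table was 148 to 168 CPM in male cells and 79.2 to 134 CPM over the female-cell groups. Of the 5 of these tested, 1 passed as higher in male cells, and their median log2 change was -0.27, opposite in sign to the sum. That of 6 sinusoidal endothelial markers was 31.9 to 35.6 against 11.9 to 15.8 CPM, that of 6 stellate cell markers 28.4 to 31.8 against 15.1 to 30.2 CPM, that of 5 cholangiocyte markers 27.8 to 33.99 against 28.9 to 48.9 CPM, and that of 5 lymphocyte markers below 1 CPM in all libraries. For 2 red blood cell markers it was 9.996 to 11.3 against 0.279 to 0.834 CPM. No marker in the table was at 0 in a whole group. Their part in the differences between stocks was not tested.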

How the data were processed

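Total RNA (250 ng, ribosomal RNA depleted, stranded kit, 12 PCR cycles) was read 2 x 100 bases, per the labels' protocols. The authors deposited raw exon counts per gene as whole numbers, with STAR 2.4.0i and mm10 named in the submitters' processing notes. Which counting program, annotation and strand setting they used is not given in the sources used here. The labels list 15 samples. Of the table's columns 2 carry the same header name and were not used, which left 13 libraries, all different by a chi-square test of replicate pairs (5.46 to 53.36 per degree of freedom).

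Counts were scaled by TMM and fitted in one model of 5 groups (edgeR 4.0.16, filterByExpr minimum count 10, 17405 genes tested, 8 residual degrees of freedom). Tests were two-sided quasi-likelihood F tests adjusted over all genes tested, with a threshold of 0.05. CPM values are TMM-scaled, except in the share of counts, the levels per kilobase and the inclusion limit. DESeq2 1.42.0 and scaling, filter, block and leave-one-out fits were alternatives, and the fits were tested on simulated data. Replicate numbers were not used as pairs. Copies were rows sharing a 100-base stretch with a GENCODE M21 transcript, chosen as the shortest complete one with at least 90% of the principal coding length. The members and lists were chosen with earlier results of these data known. Genes were named by rule: fixed members, up to 8 called per direction and comparison or the 3 largest changes (mean count at least 50), the 3 highest and lowest per length, and up to 4 per list. The X-linked members, Fau, Gnb2l1, Malat1 and Neat1 were named after their values were seen. Values of 2 genes are not reported here.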

Additional observations from a re-analysis of the deposited data

How the results depend on the processing

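Relative to the summed counts of the family, a scaling that sets the family as its own reference, the medians were 0.0059 for germ-free serum, 0.0078 for male serum, 0.024 for the stocks and 0.0031 for growth hormone, the last against a value below 0 otherwise. In the other alternatives the medians for germ-free serum and for growth hormone kept their sign. That for the stocks, near 0, also changed sign with DESeq2's size factors and test (0.005), upper-quartile scaling (0.022), only the compared groups in the fit (0.0013), without male-cell replicate 2 (0.038) and without the 2 libraries richest in Xist (0.0042). For male against female serum the median change of the members was -0.00996 without the 2 libraries richest in Xist (conventional female serum replicate 2 and growth hormone replicate 1), and the same setting gave 0.048 for germ-free serum and 1 lower member, Rps27l, for male serum. Leaving out single libraries gave medians of 0.046 to 0.22 for germ-free serum, -0.0092 to 0.17 for male serum, -0.03 to 0.04 for the stocks and -0.18 to -0.04 for growth hormone. The counts of called members then ran from 0 to 1 higher for germ-free serum, 0 to 2 higher and 0 to 1 lower for male serum, 4 to 7 higher and 2 to 9 lower for the stocks, and 5 to 13 for any difference among the 5 groups. Scaling by library size alone gave 3 higher and 17 lower members between stocks with a median of -0.091, and 14 members for any difference. Upper-quartile scaling gave 3 lower. Without a filter on low counts 1 member was higher with germ-free serum, 2 were higher with male serum and 13 differed among groups. Relative to the summed counts of the family 1 member was lower with male serum. Leaving out the 100 genes of highest count also took 12 members out of the share. The mean share of the other members was then 3.49% in male cells. For female cells it was 3.60% in male serum, 3.48% in female serum, 3.77% in germ-free serum and 3.45% with hormone. With all members kept, the share in female serum without 1 library was 3.76% or 4.37%. Leaving out mitochondrially encoded genes changed no value, since the rows used have no such counts. With the replicate number as a block, 7 members were higher and 7 lower between stocks and none passed in the other comparisons. The numbers give no pairing: deviations of same-numbered libraries correlated at -0.17 to 0.13, with 1 of 23 pairs above 0.1. The spread of 2 or 3 libraries, not counting depth, limits these comparisons.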
